A study of Mus musculus with 6 samples.

Results

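The 10 matricellular and elastic fibre genes Thbs1, Thbs2, Tnc, Sparc, Postn, Lox, Loxl1, Loxl2, Eln and Fbn1 were taken by symbol from the 30315 genes listed in each library, and all 10 were found. The libraries were made from cultured tubular epithelial cells (TECs), taken as primary cells from the kidneys of C57BL/6 mice. All 6 libraries came from cells at about 50% confluence that were transfected 12 h before hypoxia/reoxygenation (H/R). H/R was 6 h at 1.0% O2 without glucose and then 18 h of reoxygenation in complete medium. It stands in for the ischemia and reperfusion of an injured kidney. In 3 libraries the transfected RNA was siSox9, an siRNA (small interfering RNA) that targets Sox9, and in 3 it was the control siRNA siNC. A group without H/R was not analysed here, so every value below is a level after H/R. The labels do not say whether the 3 libraries of a group came from separate cultures or animals, so p-values measure the spread between these libraries, which may be technical. The columns of the deposited table name 1 numbered siRNA beside the control, which was read as siSox9 because the labels hold no other siRNA. Effects of that siRNA on other transcripts cannot be told apart from those of losing Sox9.

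The extracellular matrix holds stiff proteins that bear load and matricellular proteins that are secreted into it to change how cells attach, move and respond to growth factors. Elastic fibres are built from elastin laid onto microfibrils of fibrillin, and enzymes of the lysyl oxidase family cross-link elastin and collagen. In the kidney these genes are best known from fibroblasts, mesangial cells and vessel walls, and injured tubular cells can also make some of them. SOX9 is a transcription factor that is switched on in tubular cells after injury and is known in cartilage for driving matrix genes.

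The targeted gene was checked first. Sox9 had 8.93, 8.61 and 9.07 FPKM with siSox9 and 25.72, 26.53 and 25.62 FPKM with siNC. FPKM scales a gene's fragments to its exon length and to the size of the library, so levels of different genes can be set side by side. The groups lay far apart, and 34.2% of the siNC mean was left. The libraries held 23893197 to 25725743 reads, recovered from the values with exon lengths, so that 1 read on 1 kb of exons was worth 0.0389 to 0.0419 FPKM. Reads per gene differed between libraries of the same group by a mean chi-square of 2.01 to 8.57 (sampling noise alone gives a value near 1), so none was a copy of another, and between groups by 26.3 to 30. Within the siNC group, replicate 1 stood apart, at 8.15 and 8.57 from the other libraries, which differed from each other by 3.02. Within the siSox9 group, replicate 3 was the one further off, at 4.64 and 3.46 from the others, which differed from each other by 2.01.

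Markers were read to check the labelled cell type. The epithelial keratins Krt8 and Krt18 were at 2123 and 1254 FPKM on average with siSox9, and 11 of 18 markers of tubular epithelium had a mean of at least 1 FPKM, while Slc34a1, Umod, Slc12a3 and Aqp2, which mark mature tubule segments, stayed below 0.1 FPKM in every library. The summed FPKM of the tubular markers ranged from 4839 to 4968 with siSox9 and from 4638 to 4823 with siNC. In the test described below, 2 of these 11 markers passed, where 30.4% of all tested genes did. Cdh16 (129.7 against 100.9 FPKM) and Havcr1 (74.6 against 65.4 FPKM) were higher with siSox9 (limma, adjusted p = 0.000307 and 0.0366). Of 9 fibroblast markers in the table, only Col1a1 had a mean of at least 1 FPKM, Dcn, Dpt and Tcf21 stayed under 0.1 FPKM, and the sum was 6.72 to 8.34 FPKM with siSox9 and 8.59 to 9.64 FPKM with siNC.

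The levels of the 10 genes ran from 1551 FPKM for Thbs1 in siSox9 replicate 2 down to 0.024 FPKM for Eln in siSox9 replicate 1. Thbs1 was the 14th most abundant of all genes listed, Tnc the 110th and Sparc the 172nd by mean FPKM over the 6 libraries. Lox, Loxl2 and Loxl1 lay between 12.63 and 48.2 FPKM, and Fbn1 between 1.69 and 2.31 FPKM. Postn did not exceed 0.709 FPKM, and Thbs2 and Eln did not exceed 0.190 FPKM in any library. The set therefore held abundant matricellular genes and cross-linking enzymes with almost no transcript of elastin itself. The gene ontology terms in the deposited table place 8 of the 10 in the extracellular space, a term of 1363 genes, and 4 of the 10 carry heparin binding.

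**Figure D1:**
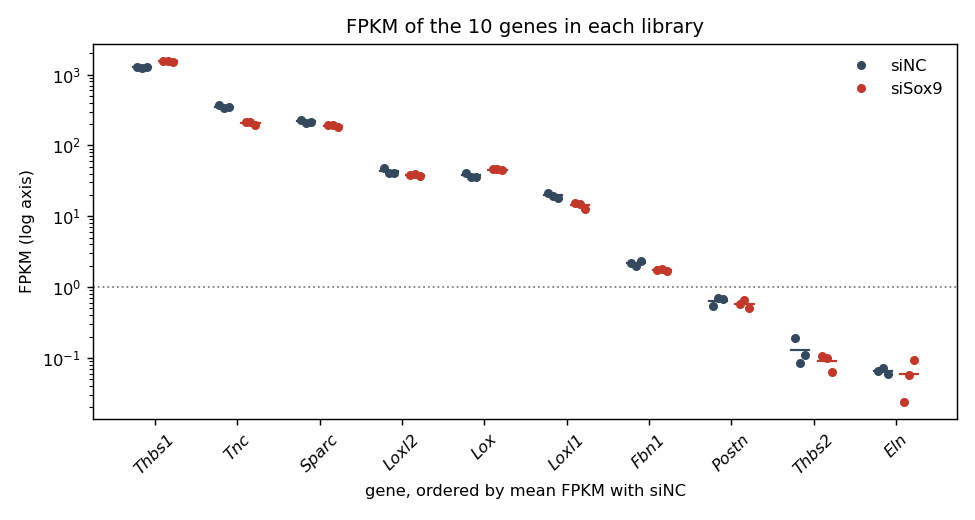
FPKM of each of the 10 genes in each library on a log axis, ordered by the mean with siNC. Each point is 1 library and short lines are group means, with the dotted line at 1 FPKM, the minimum mean for the test. Thbs1 and Lox sit higher with siSox9, Tnc shows the widest gap downward, and the points of Postn, Thbs2 and Eln overlap.

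The comparison asked how knocking down Sox9 changed these genes in injured TECs. Tnc, Loxl1, Sparc and Fbn1 fell, Thbs1 and Lox rose, and Loxl2 was the gene that did not pass among the 7 with a mean of at least 1 FPKM. These are calls of limma on log2(FPKM + 1) at a Benjamini-Hochberg adjusted p under 0.05 over 12009 genes. The call rate among all tested genes was 30.4% in either direction, 12.8% higher (1532 genes) and 17.6% lower (2118 genes), against 6 of 7, 2 of 7 and 4 of 7 here. With a minimum mean of 5 FPKM, 2704 of 7495 genes passed, 5 of the 10 genes among them. The 10 genes were chosen with earlier results of these data known, so these shares are not a test of the set. With median-centred libraries, the calls over all genes were 1959 higher and 1765 lower. All 7 genes had groups without overlap, 2 of them higher and 5 lower. Over all tested genes the groups did not overlap for 46.3%, with 20.2% higher and 26.1% lower. In 6 of the 7 genes, all but Fbn1, siNC replicate 1 was the highest siNC library. Without it 5 of the 7 passed, Fbn1 being lost, and the log2 fold changes were -0.72 for Tnc, -0.37 for Loxl1, -0.16 for Sparc, 0.30 for Thbs1 and 0.33 for Lox. In each of the 7 genes, siSox9 replicate 3 was the lowest siSox9 library. Leaving out that library also left 5 passing, with Fbn1 lost. The log2 fold changes were then -0.71 for Tnc, -0.36 for Loxl1, -0.18 for Sparc, 0.30 for Thbs1 and 0.28 for Lox. The median log2 fold change was -0.20 for the 7 genes and -0.01 for all genes tested, and the 3 genes below 1 FPKM are not in these counts. For each gene whose groups did not overlap, the exact two-sided permutation test gave p = 0.1, the smallest that 3 libraries against 3 allow.

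Among the matricellular genes, Tnc, which encodes tenascin-C, a large hexameric protein that loosens cell adhesion and appears in healing tissue, changed most. It had 212.8, 215.6 and 196.8 FPKM with siSox9 and 368.4, 341.2 and 347.3 FPKM with siNC. Every siSox9 library was below every siNC library, and the lowest siNC value exceeded the highest siSox9 value by more than the range of either group. The means were 208.4 ± 10.1 FPKM (SD, n = 3) and 352.3 ± 14.3 FPKM (SD, n = 3), which left 59.2% of the siNC level. The log2 fold change was -0.76 (standard error 0.047, 95% interval -0.86 to -0.65, limma with Benjamini-Hochberg correction, adjusted p = 0.000103). By the size of the log2 fold change Tnc ranked 93rd of 12009 genes and 65th from the lowest. Its reads, 36551 to 42544 against 64034 to 71092, leave little counting error.

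The deposited table places Tnc (ENSMUSG00000028364) on the minus strand of chromosome 4 from 63959785 to 64047015, which matches GENCODE M21 in GRCm38. The 8030451A03Rik gene on the opposite strand shares 176 of the 7772 exon bases of Tnc. This opposite-strand gene had 2.25, 2.2 and 2.28 FPKM with siSox9 and 3.85, 3.38 and 3.35 FPKM with siNC, so it was also lower. The strand of the library is not given in the sources used here, and reads in the shared bases cannot be told apart.

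The RefSeq promoter table of GRCm38.p6 held windows for 5 of the 10 genes (Tnc, Sparc, Fbn1, Thbs2 and Postn). The 250 bases before the start are shown for Tnc, as the gene with the largest change. They are also shown for Thbs2 and Postn, its matricellular neighbours in function, whose RNA stayed below 1 FPKM in every library. All are written 5′ to 3′ on the gene's strand, at chr4:64047016-64047265 for Tnc (minus strand), chr17:14694263-14694512 for Thbs2 (minus strand) and chr3:54360857-54361106 for Postn (plus strand). Capitals mark matches, on either strand, to 4 motifs: the SOX core motifs AACAAT and ACAAAG, the EGR1 motif GCGNGGGCG and the TATA motif TATAAA.
Tnc: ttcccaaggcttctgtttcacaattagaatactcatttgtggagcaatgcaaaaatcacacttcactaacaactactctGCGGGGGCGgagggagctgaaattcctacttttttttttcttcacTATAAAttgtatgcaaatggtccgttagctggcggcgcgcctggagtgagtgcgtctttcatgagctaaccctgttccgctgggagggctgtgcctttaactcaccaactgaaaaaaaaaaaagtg
Thbs2: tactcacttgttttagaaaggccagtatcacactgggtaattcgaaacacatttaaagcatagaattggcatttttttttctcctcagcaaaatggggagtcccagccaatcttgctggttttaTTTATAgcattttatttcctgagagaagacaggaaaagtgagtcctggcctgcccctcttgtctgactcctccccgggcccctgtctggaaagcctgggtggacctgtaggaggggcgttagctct
Postn: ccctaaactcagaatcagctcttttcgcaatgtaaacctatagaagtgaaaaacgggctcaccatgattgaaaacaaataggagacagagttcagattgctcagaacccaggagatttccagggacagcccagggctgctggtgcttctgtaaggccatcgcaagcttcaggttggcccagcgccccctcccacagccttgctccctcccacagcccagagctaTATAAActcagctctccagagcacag
In the Tnc window, the EGR1 motif began 171 bases before the start and TATAAA 126 bases before it, and neither SOX core motif was found. The table gives a second, downstream start for Tnc, from which the same motifs lie 250 and 205 bases. The Thbs2 window held TATAAA on the opposite strand, 126 bases before the start, and the Postn window held it 26 bases before the start. A second Postn start, upstream of this one, has a window with the SOX core motif AACAAT 165 bases before it. That was the only SOX core match in the 7 windows of these genes. Unlike in the other windows, its last 20 bases were in no GENCODE M21 transcript of the gene. In the 300-base windows of all 32851 starts in the table, AACAAT was present in 10.7%, ACAAAG in 18.7%, GCGNGGGCG in 5.55% and TATAAA in 13.6%. The Sparc and Fbn1 windows held none of the 4 motifs, but 238 and 250 of their 250 bases before the start lay in GENCODE M21 exons. A match describes letters and not a bound site, and the motifs were chosen with the results known.

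Thbs1 encodes thrombospondin-1, a secreted trimer that blocks vessel growth and activates latent TGF-β. It had 1547, 1551 and 1506 FPKM with siSox9 and 1280, 1230 and 1264 FPKM with siNC. All 3 siSox9 libraries were above all 3 siNC libraries, with a gap wider than the spread inside either group. The means of 1535 ± 24.8 and 1258 ± 25.6 FPKM (SD, n = 3 each) made a 1.22-fold rise. The log2 fold change was 0.29 (standard error 0.033, 95% interval 0.21 to 0.37, limma, Benjamini-Hochberg adjusted p = 0.00103). The call was lost when no filter on low genes was used (adjusted p = 0.0638) and after quantile normalization (0.25, adjusted p = 0.0797), both with limma. Thbs1 (ENSMUSG00000040152) lies on the plus strand of chromosome 2 from 118111876 to 118127133, where 208 of 6073 exon bases are shared with Gm29233 on the opposite strand.

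The level of Thbs1 relative to Tnc in the same library differed between the groups. The ratio of Thbs1 to Tnc FPKM was 7.27, 7.20 and 7.65 with siSox9 and 3.47, 3.61 and 3.64 with siNC, which is a 2.06-fold difference. Since a scaling of a whole library cancels in it, this ratio does not depend on the scaling factor of a library. The 3 within-library ratios given here and below were chosen after the values were seen, their groups did not overlap, and their exact two-sided permutation p was 0.1. The sum of all 10 genes was 1984 to 2062 FPKM with siSox9 and 1880 to 1993 FPKM with siNC, groups that overlap. Thbs1 made up 75.2% to 75.9% of it with siSox9 and 64.2% to 65.7% with siNC. Without Thbs1, the other 9 genes summed to 507.4, 511.2 and 477.7 FPKM against 713.3, 649.8 and 658.6 FPKM. Most of that gap was Tnc, with a difference of means (siSox9 minus siNC) of -143.9 FPKM, followed by Sparc with -28.77 FPKM. Lox went the other way, with 7.925 FPKM.

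Sparc encodes osteonectin, which binds collagen and calcium and steers how fibrils assemble. It had 192.3, 192.6 and 183.4 FPKM with siSox9 and 231.1, 210.2 and 213.2 FPKM with siNC. The siSox9 libraries were all lower, by a margin about as wide as the spread among the siNC libraries. The log2 fold change was -0.20 (standard error 0.044, 95% interval -0.30 to -0.10, limma, Benjamini-Hochberg adjusted p = 0.013), with 86.8% of the control mean left. On TPM, which has the same sum in each library, it was -0.17 and was no longer called (limma, adjusted p = 0.103). With siNC Tnc stood well above Sparc in each library, while with siSox9 the levels of these genes were close, with Tnc at 196.8 to 215.6 and Sparc at 183.4 to 192.6 FPKM. Sparc (ENSMUSG00000018593) lies on the minus strand of chromosome 11 from 55394500 to 55423183.

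Postn, for periostin, a matricellular protein of bone, heart valves and scarring tissue, was below the minimum mean of 1 FPKM and was not tested in the main fit. It had 0.576, 0.647 and 0.515 FPKM with siSox9 and 0.542, 0.709 and 0.675 FPKM with siNC, from 107 to 149 reads. The groups overlapped (exact two-sided permutation p = 0.4). A fit of limma voom to recovered reads with no filter, added after the data were seen, gave a log2 fold change of -0.14 with a 95% interval of -0.45 to 0.17. Thbs2, for thrombospondin-2, a close relative of thrombospondin-1 that binds matrix metalloproteinases, had 0.105, 0.0998 and 0.0636 FPKM with siSox9 and 0.190, 0.0839 and 0.109 FPKM with siNC. The groups overlapped here too (exact two-sided permutation p = 0.4). With no filter its log2 fold change was -0.05, with a 95% interval of -0.15 to 0.05 on the log2(FPKM + 1) scale, which compresses changes at this level.

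The lysyl oxidases are copper enzymes that oxidize lysines of collagen and elastin so that the chains cross-link. Lox, the founding member, had 45.84, 45.72 and 45.13 FPKM with siSox9 and 41.08, 36.26 and 35.57 FPKM with siNC. Its siSox9 libraries were nearly alike and all above the siNC libraries, of which replicate 1 was the highest. The means of 45.56 ± 0.377 and 37.64 ± 3.001 FPKM (SD, n = 3 each) made a 1.21-fold rise, with a log2 fold change of 0.27 (standard error 0.054, 95% interval 0.15 to 0.40, limma, Benjamini-Hochberg adjusted p = 0.00937). Its exon length in GENCODE M21 did not return whole reads, so no count of reads is given.

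Loxl1, which is needed to renew elastic fibres in adult tissue, went the other way. It had 15.39, 14.82 and 12.63 FPKM with siSox9 and 21.54, 19.04 and 18.37 FPKM with siNC. The groups were separate, although each held 1 library apart from its other pair. The means were 14.28 ± 1.46 and 19.65 ± 1.67 FPKM (SD, n = 3 each), so 72.7% was left, and the log2 fold change was -0.44 (standard error 0.083, 95% interval -0.63 to -0.24, limma, Benjamini-Hochberg adjusted p = 0.00793). Among the 7 tested genes it had the largest change after Tnc on the log2(FPKM + 1) scale, ranking 653rd of 12009 by size. Loxl1 (ENSMUSG00000032334) lies on the minus strand of chromosome 9 from 58287738 to 58313186 and shares no exon bases with another gene.

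Loxl2, which acts on basement membrane collagen IV, had 38.63, 39.93 and 37.31 FPKM with siSox9 and 48.2, 40.24 and 41.02 FPKM with siNC. The groups did not overlap, but the highest siSox9 value nearly met the lowest siNC value, and siNC replicate 1 stood apart. The log2 fold change was -0.15 (standard error 0.068, 95% interval -0.31 to 0.01) and did not pass (limma with Benjamini-Hochberg adjustment, adjusted p = 0.137). With limma voom on recovered reads it was -0.16 and passed (adjusted p = 0.0409), and without siNC replicate 1 it was -0.07 (limma, adjusted p = 0.192). Loxl2 (ENSMUSG00000034205) lies on the plus strand of chromosome 14 from 69609068 to 69695834, and 308 of its 5405 exon bases lie in other genes too.

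Within a library, Lox was above Loxl2 in all 3 siSox9 libraries and below it in all 3 siNC libraries. The ratio of Lox to Loxl2 FPKM was 1.19, 1.15 and 1.21 with siSox9 and 0.852, 0.901 and 0.867 with siNC, a 1.35-fold difference. The ratio of Lox to Loxl1 was 2.98, 3.08 and 3.57 with siSox9 and 1.91, 1.90 and 1.94 with siNC, a 1.68-fold difference. In both groups Lox and Loxl2 had higher mean FPKM than Loxl1.

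**Figure D2:**
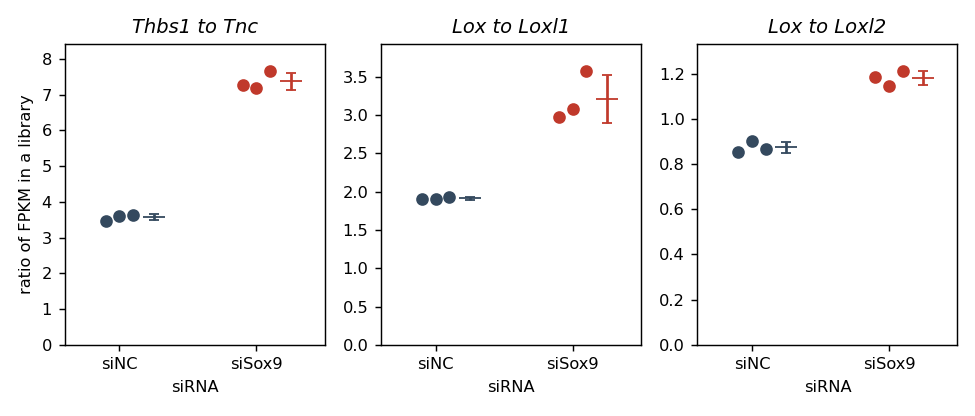
Ratios of FPKM of gene pairs within each library, with 1 point per library and the group mean and SD drawn beside the points on axes that start at 0. In each panel all 3 siSox9 points lie above all 3 siNC points, and the ratio of Lox to Loxl2 passes from below 1 with siNC to above 1 with siSox9.

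Of the elastic fibre genes proper, Fbn1, for fibrillin-1, the backbone of microfibrils, had 1.76, 1.78 and 1.69 FPKM with siSox9 and 2.19, 1.997 and 2.31 FPKM with siNC. The siSox9 libraries were all lower, at 80.5% of the control mean. The log2 fold change was -0.21 (standard error 0.06, 95% interval -0.35 to -0.06, limma, Benjamini-Hochberg adjusted p = 0.0385), and the scale of FPKM + 1 understates a change at this level. On recovered reads, 489 to 549 against 585 to 697, limma voom gave -0.31 (adjusted p = 0.0023). This call was the least firm of the 6. It was lost on leaving out siSox9 replicate 1, 2 or 3 or siNC replicate 1 or 3 (log2 fold changes of -0.22 to -0.17, limma adjusted p 0.0832 to 0.121) and when replicate number entered as a block (-0.21, limma adjusted p = 0.081). Fbn1 (ENSMUSG00000027204) lies on the minus strand of chromosome 2 from 125300594 to 125507993. It shares 2442 of its 12128 exon bases with Gm9913 on the opposite strand, which was listed at 0 in 4 of 6 libraries and at no more than 0.0445 FPKM.

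Eln, for elastin, the core of the elastic fibre, was barely detected. It had 0.024, 0.0584 and 0.0930 FPKM with siSox9 and 0.0647, 0.0716 and 0.0596 FPKM with siNC, which are 5, 12 and 18 reads against 13, 14 and 12 reads. The siSox9 libraries spread around the siNC libraries (exact two-sided permutation p = 0.7), and with limma voom and no filter the log2 fold change of -0.35 had a 95% interval of -1.29 to 0.58. Neither Eln nor Postn passed in that fit (adjusted p = 0.679 and 0.659), in which 13.4% of 25759 genes did. With no filter in the fit to FPKM, 4 of the 10 genes passed, against 9.6% of 28122 genes. Eln, Postn and Thbs2 were not among them.

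**Figure D3:**
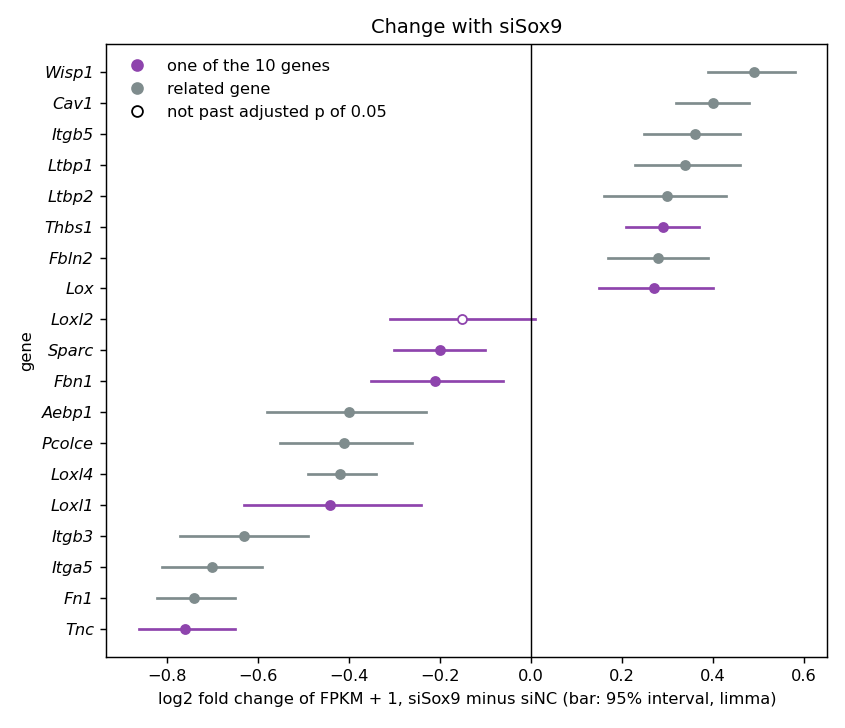
Log2 fold change of FPKM + 1 (siSox9 minus siNC) with its 95% interval from limma, for the 7 tested genes and for 12 related genes named by rule. Open symbols did not pass. Tnc at -0.76 lies at the lower end next to Fn1 at -0.74, and the interval of Loxl2 crosses 0.

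The families of these genes were read from lists of 66 further genes, of which 65 were in the table and 37 had a mean of at least 1 FPKM. Of the 37, 14 rose, 8 fell and 15 did not pass, with a median log2 fold change of 0.02. Over all tested genes 30.4% passed, with 12.8% higher and 17.6% lower, and these shares stand beside the counts of each list below. Among 8 other elastic fibre genes tested, 3 rose and 2 fell. Fn1, for fibronectin, the scaffold on which fibrils are laid and a partner of tenascin-C, had 958.1, 965.4 and 937.3 FPKM with siSox9 and 1642, 1542 and 1583 FPKM with siNC. It fell by a log2 fold change of -0.74 (limma, adjusted p = 5.9e-05). The rises were Ltbp1 (0.34) and Ltbp2 (0.30), which bind microfibrils, the first of them also holding latent TGF-β, and Fbln2 (0.28), a fibulin that binds elastin and fibronectin. Fbn2, the fibrillin of the embryo, did not exceed 0.0922 FPKM.

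Of 6 further cross-linking genes tested, 2 rose and 2 fell. Loxl4 fell from 20.9 ± 0.55 to 15.4 ± 0.316 FPKM (SD, n = 3 each). Its log2 fold change of -0.42 (limma, adjusted p = 0.000258) was close to that of Loxl1. Loxl3 was at 0.729 ± 0.144 FPKM with siSox9 and 0.691 ± 0.149 FPKM with siNC (SD, n = 3 each), below the filter. Of the 5 lysyl oxidases, Lox rose, Loxl1 and Loxl4 fell, Loxl2 did not pass and Loxl3 was not tested. Among the thrombospondins and tenascins, only Thbs3 reached the filter besides Thbs1 and Tnc. It had 1.03 ± 0.158 FPKM with siSox9 and 1.22 ± 0.111 FPKM with siNC and did not pass (limma, adjusted p = 0.297), and Thbs4 and Comp did not exceed 0.0123 and 0.136 FPKM.

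In the list of CCN and other matricellular genes, 2 of 7 rose and 2 fell. Wisp1, a CCN family protein of the Wnt pathway, showed the largest rise of the related genes, from 39.5 ± 0.824 to 55.9 ± 2.58 FPKM (log2 fold change 0.49, limma adjusted p = 0.00027). Pcolce (-0.41), which speeds the processing of procollagen, and Aebp1 (-0.40), a collagen-binding matrix protein, fell. Of 2 SPARC relatives tested 1 rose and 1 did not pass.

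Of 13 genes tested in a list of receptors for these proteins, 6 rose and 2 fell. Cav1, for the coat protein of caveolae and not a receptor, was on that list and is counted among the rises. The falls were Itga5 (log2 fold change -0.70), whose protein joins integrin β1 as the fibronectin receptor, and Itgb3 (-0.63), a partner of integrin αv. Itgb5 (0.36), another partner of αv, and Cav1 (0.40) rose. The 2 thrombospondin-1 receptors Cd47 (0.06) and Cd36 (-0.01) did not pass (limma, adjusted p = 0.264 and 0.936).

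**Figure D4:**
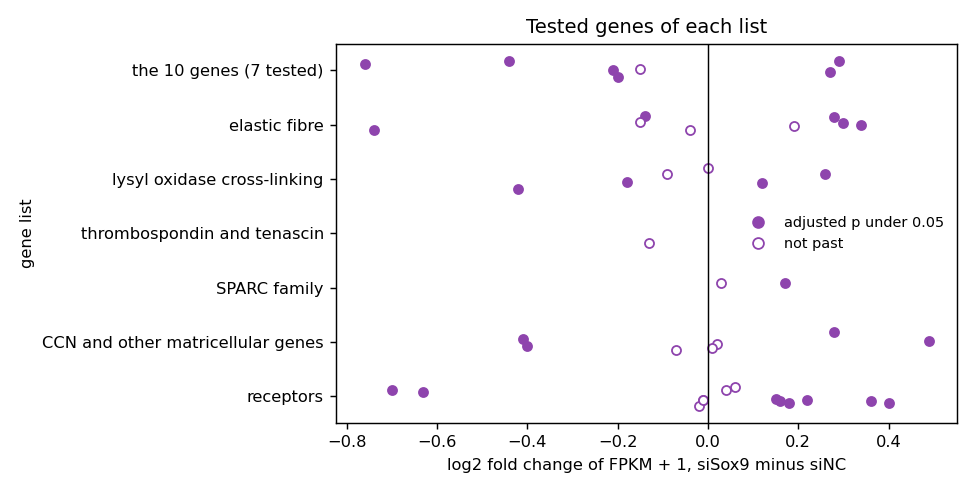
Log2 fold changes of FPKM + 1 of the tested genes in each list, with 1 point per gene, filled where the adjusted p was under 0.05 and shifted vertically at random to spread the points. Each list with more than 2 tested genes holds filled points on both sides of 0.

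Markers of other cells were compared as well. Of those with a mean of at least 1 FPKM, 1 of 6 passed for smooth muscle, pericytes and mesangial cells. It was 2 of 2 for podocytes, 1 of 4 for macrophages and leukocytes, and 0 of 1 each for fibroblasts and endothelium. Over all tested genes 30.4% passed. Among fibroblast and endothelial markers below that level, Emcn (61.4% of the siNC mean), Thy1 (58.3%), Col3a1 (71.4%), Pdgfrb (77.4%) and Pecam1 (84.3%) were lower without overlap. The groups overlapped for the rest of them. With no filter Emcn alone of these markers passed (limma, adjusted p = 0.0331), where 9.6% of all genes did. Markers of smooth muscle, pericytes and mesangial cells summed to 793 to 849 FPKM with siSox9 and 872 to 922 FPKM with siNC. In that list 6 of 9 had a mean of at least 1 FPKM. Acta2, the main one, did not pass (686.1 against 727.2 FPKM), and Cnn1, for the contractile protein calponin, fell from 58.6 to 24.6 FPKM (log2 fold change -1.22). Podocyte markers summed to 12.5 to 13.9 against 18.8 to 19.5 FPKM, with Podxl and Synpo lower and Nphs1 at 0 in all libraries. Macrophage and leukocyte markers summed to 104 to 114 against 92.6 to 99.1 FPKM, where Lyz2 alone went from 71.9 to 83.4 FPKM and was the only one of 6 to pass, and endothelial markers to 3.06 to 3.30 against 3.35 to 4.34 FPKM. The part of these cells in the falls of Tnc, Loxl1, Sparc and Fbn1 was not tested, and in such bulk RNA fewer cells of a type and less RNA per cell cannot be told apart.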

How the data were processed

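RNA-Seq was performed on 6 libraries of mouse primary renal TECs, 3 per siRNA, and groups were taken from the labels. The authors deposited 1 FPKM value per gene for each library, with no scaling between libraries. The submitters' processing notes name HISAT2 2.1.0, Bowtie2 2.2.3, TopHat2 and the build mm9, with no roles. The positions in the table match GENCODE M21 (GRCm38) for 93.3% of 30246 genes, so coordinates are given as in the table. The counter, annotation and strand setting are not given in the sources used here.

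From the FPKM values, limma 3.58.1 in R 4.3.3 (lmFit, eBayes with a trend) was run on log2(FPKM + 1), with no block, for genes whose mean reached 1 FPKM, Benjamini-Hochberg adjustment over all genes tested and a threshold of 0.05. Exact permutation tests were two-sided. Whole reads were recovered with GENCODE M21 exon lengths for 27948 genes, within 0.02 reads in all libraries. The alternatives were a pseudocount of 0.1, TPM, quantile normalization, centring on the median, a filter at 5 FPKM or none, a replicate block, limma voom on recovered reads, a minimum absolute log2 fold change of 0.5 and leaving out each replicate. Voom without a filter and ratios within libraries were added after seeing the data. Tables and figures were made in Python 3.11.15 (pandas 2.3.3, numpy 2.4.6, matplotlib 3.10.9).

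The 10 genes and the lists were chosen with earlier results of these data known. The genes named are all 10, Sox9, up to 6 related genes with the largest rises and up to 6 with the largest falls past the threshold without overlap between groups, family members with their level, and defining markers. Promoter windows came from the RefSeq table of GRCm38.p6.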

Additional observations from a re-analysis of the deposited data

How the results depend on the processing

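Direction was kept for the 7 tested genes, the 12 related genes named by rule, Sox9 and the 3 ratios under each alternative that gave a value. Tnc, Fn1, Itgb3 and Sox9 also kept their call under all 15. The count of the 10 genes that passed was 6, with 4 to 6 under the other alternatives and 5 to 6 on leaving out a replicate. With a minimum absolute log2 fold change of 0.5 it was 1 (Tnc), with 0 higher and 1 lower, and for the related lists 3, with 0 higher and 3 lower. The count of higher genes went from 2 to 1 with no filter, with quantile normalization (both Thbs1) and with limma voom on recovered reads, which gives no value for Lox. The count of lower genes went from 4 to 2 on TPM (Sparc and Fbn1). Besides the values given with the results, Fbn1 lost its call with no filter (-0.21, limma adjusted p = 0.113), on TPM (-0.24, 0.108), median-centred (-0.18, 0.0568) and after quantile normalization (-0.13, 0.122), and a minimum of 5 FPKM left it out of the test. The cause of these losses was not tested.

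Over all genes, 3650 passed, against 383 with the minimum of 0.5 (111 higher and 272 lower). The lower calls were 1376 with a minimum of 5 FPKM and 1332 on TPM. Leaving out a replicate gave 2424 to 3654, with 944 to 1565 higher and 1480 to 2089 lower, the fewest without siSox9 replicate 2. With the replicate block, 3262 genes passed and Fbn1 was the only one of the 10 to change its call. The correlations of same-numbered libraries' deviations were 0.0649, -0.0504 and 0.00784, and 2 of 6 libraries correlated best with their own number. These values showed no pairing by number, but 3 libraries per group are too few to settle whether libraries were paired. At this depth Eln had 5 to 18 reads per library, and its 95% interval ran from -1.29 to 0.58 with limma voom and no filter.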

Other observations

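Several abundant relatives outside the rule for named genes are given here, chosen after their values were seen. Spp1, for osteopontin, a matricellular protein that injured tubules secrete, rose from 637 ± 35.8 to 771.8 ± 11.3 FPKM (SD, n = 3 each, log2 fold change 0.28, limma adjusted p = 0.00401). Cyr61 and Ctgf, immediate-early CCN genes, were at 659.4 ± 19.2 and 591.5 ± 7.001 FPKM with siSox9 and 692.8 ± 28.0 and 584.1 ± 29.1 FPKM with siNC, and neither passed (limma, adjusted p = 0.231 and 0.76). Bmp1, the protease that cleaves the propeptides of procollagen and lysyl oxidase, rose from 101.1 ± 5.54 to 121.3 ± 4.77 FPKM (log2 fold change 0.26, limma adjusted p = 0.00698). Fstl1, the SPARC relative that rose, went from 53.2 ± 1.42 to 59.8 ± 0.938 FPKM (0.17, adjusted p = 0.00735). Itgb1, the β1 integrin subunit that pairs with the product of Itga5, rose from 979.6 ± 1.76 to 1083 ± 14.1 FPKM (0.15, limma adjusted p = 0.00988), a call that was lost with no filter on low genes (limma, adjusted p = 0.208), while Itga5 fell.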
